A study of Mus musculus with 7 samples.

Results

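Myofibre-like barcodes are the part of the total muscle libraries that carries the messages of the muscle fibre itself. They were taken from the 2 total muscle libraries, which hold live cells sorted by flow cytometry after enzymatic digestion of hindlimb muscle from wild-type C56BL/6J mice 3 months old, and were chosen on measured values. A barcode counted where it had at least 200 detected genes, at most 10% of its unique molecular identifiers (UMIs) from mitochondrially encoded (mt-) genes, at least 1% of its UMIs from Acta1, Ckm, Mylpf, Tnnt3, Tnnc2 and Myl1 together, and 0 UMIs of Ptprc, the gene of the leukocyte surface protein CD45. The rule found 40 of 1969 filtered barcodes in total muscle 1 and 61 of 2424 in total muscle 2, 101 of 4393 in all. The remaining 1929 and 2363 filtered barcodes of the same libraries are called the other barcodes. The series also holds 2 libraries of homeostatic muscle stem cells (MuSCs), 2 of MuSCs sorted 60 h after injury with 2 µM notexin, and 1 of primary myoblasts, which are satellite cells from hindlimbs of mice of the same strain and age grown for 4 to 5 passages on collagen with bFGF and horse serum. The labels do not say whether the 2 total muscle libraries came from separate mice, so the spread between them may be technical.

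A skeletal muscle fibre is a long syncytium, formed by fusion of many myoblasts, with its nuclei at the edge and its volume filled by sarcomeres. In the sarcomere, thick filaments of myosin pull on thin filaments of actin that are switched by calcium through troponin and tropomyosin, and glycolysis, creatine kinase and mitochondria supply the ATP. In mouse hindlimb most fibres are fast, with a myosin heavy chain encoded by Myh4 (type IIB), Myh1 (type IIX) or Myh2 (type IIA), and slow fibres use Myh7.

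The members were 2.03% of the filtered barcodes of total muscle 1 (95% exact binomial interval 1.46 to 2.76%) and 2.52% of those of total muscle 2 (1.93 to 3.22%), a mean of 2.27% ± 0.343 (SD, n = 2 libraries). The intervals cover counting error only. Members were shallower than the other barcodes, with a median of 1981 and 2210 UMIs and 760.5 and 774 genes, against 3078 and 3239 UMIs and 1236 and 1246 genes in the other barcodes of total muscle 1 and 2. When each barcode was thinned to 1000 UMIs, with no barcode left out as too shallow, members had a median of 454 and 432 genes and the other barcodes 559 and 557. Summed over barcodes, the members held 118540 and 183832 UMIs and the other barcodes 7675114 and 9620148. The filter left out 13 and 8 barcodes, of which 0 had a share of at least 1% from the 6 genes. The libraries have 6 barcode sequences in common, and 0 of them are members.

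The 6-gene share that chose the members had a wide gap around its threshold. It was 18.4% and 20.8% of all UMIs of the members, against 0.0301% and 0.0488% of those of the other barcodes. Just inside the threshold stood barcodes with 1.98% in total muscle 1 and 2.22% in total muscle 2, and just outside it, among barcodes without Ptprc, 0.547% and 0.977%. Most members were far from it, since 34 of 40 and 57 of 61 had a share of at least 10%, with a maximum of 34.8% and 32.0%. Another 6 and 4 members lay between 1% and 10%. In total muscle 2, 2 barcodes with shares of 12.5% and 8.10% had 1 Ptprc UMI each and so are counted with the other barcodes.

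**Figure D1:**
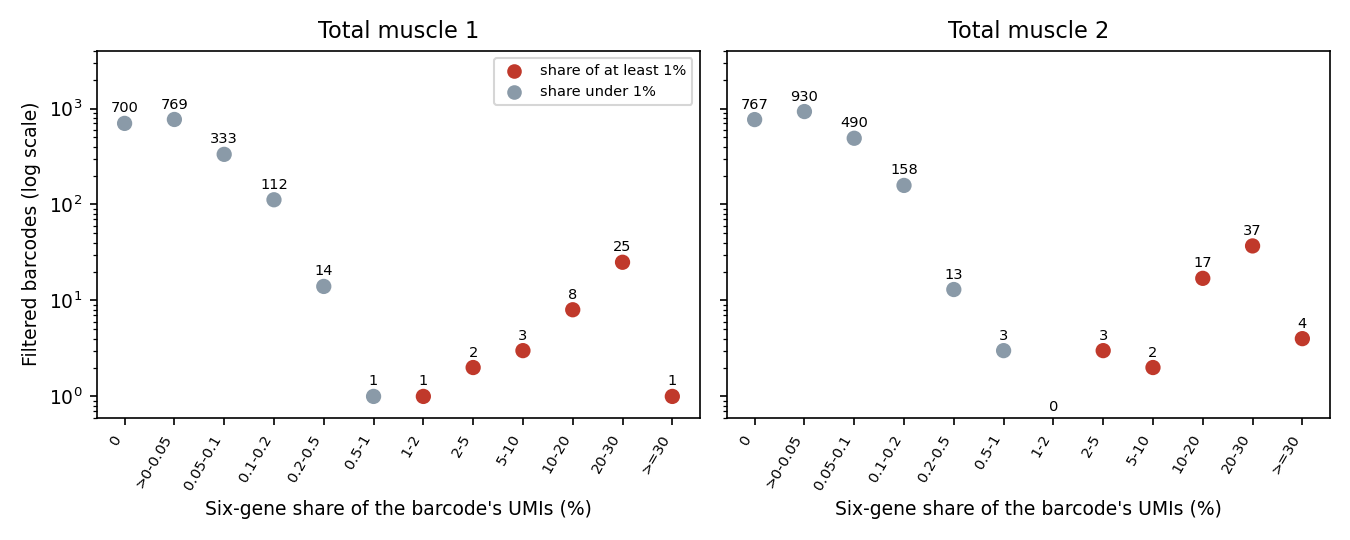
Number of filtered barcodes (log scale) by the share of their UMIs that came from Acta1, Ckm, Mylpf, Tnnt3, Tnnc2 and Myl1, in total muscle 1 and 2; red points lie at or above the 1% threshold, and 0 marks an empty bin. The bin from 20 to 30% holds 25 and 37 barcodes, while the bins on either side of the threshold hold 3 or fewer; in total muscle 2 the red points include the 2 barcodes with a Ptprc UMI.

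Acta1 encodes skeletal alpha-actin of the thin filament and Ckm the muscle creatine kinase that buffers ATP. Mylpf encodes the regulatory light chain and Myl1 an essential light chain of fast myosin, and Tnnt3 and Tnnc2 encode fast troponin T and fast troponin C. Since these genes chose the members, their levels are a description. In CPM, the counts scaled to a common total per sum of barcodes, Acta1 stood at 53020 and 60463 in the members and at 82.9 and 146 in the other barcodes of total muscle 1 and 2. Ckm stood at 24414 and 25159 CPM in the members and at 51.1 and 65.9 CPM in the other barcodes. For each of the 6 genes, both sums of members exceeded both sums of the other barcodes by over 100-fold. Myl1 has 1 near-identical copy at its 3' end.

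Promoter windows of Acta1 and Ckm are shown as those of a thin filament gene and a metabolic gene of the rule; they are RefSeq sequences of build GRCm38.p6 from 250 bases before to 50 bases after the transcript start. Capitals mark the E-box CAGCTG, a sequence that myogenic bHLH factors such as MyoD are known to bind, the CArG box that binds serum response factor, and TATAAA. The Acta1 window lies at chr8:123894726-123895025 on the minus strand and the Ckm window at chr7:19410844-19411143 on the plus strand.
Acta1: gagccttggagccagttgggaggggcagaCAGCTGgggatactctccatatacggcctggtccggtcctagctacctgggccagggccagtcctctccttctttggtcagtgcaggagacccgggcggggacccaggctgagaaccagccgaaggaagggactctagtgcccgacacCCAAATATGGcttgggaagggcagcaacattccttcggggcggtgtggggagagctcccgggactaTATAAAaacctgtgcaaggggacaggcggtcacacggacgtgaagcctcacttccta
Ckm: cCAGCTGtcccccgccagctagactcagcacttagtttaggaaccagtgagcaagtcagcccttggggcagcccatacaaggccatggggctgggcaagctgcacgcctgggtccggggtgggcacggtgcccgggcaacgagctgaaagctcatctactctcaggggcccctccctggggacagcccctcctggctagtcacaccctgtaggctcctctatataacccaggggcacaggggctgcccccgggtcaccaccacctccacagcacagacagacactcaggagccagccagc
The Acta1 window holds 1 CAGCTG, 1 CArG box and 1 TATAAA, and the Ckm window 1 CAGCTG. For the 6 genes together 5 windows were available, and CAGCTG was found in 4 of these windows.

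Across the transcriptome, 2576 genes had a mean of at least 50 CPM over the 4 sums (members and other barcodes of each library). A gene was called higher or lower where CPM + 10 differed at least 4-fold in both libraries. On that rule 347 genes (13.5%) were higher and 405 (15.7%) lower in the members. Without total muscle 1 the genes lower numbered 716, and without total muscle 2 they numbered 487. As the members were chosen on expression in the same barcodes, these calls describe the members and carry no test. Of the genes higher, 239 averaged under 50 CPM in the other barcodes and passed the filter only through the members, so a higher call was close to fixed for them; 102 had at least 50 CPM in the other barcodes of both libraries, among 2083 such genes. The genes called higher made up 51.2% and 56.8% of the members' UMIs, against 1.92% and 1.99% of those of the other barcodes, and the median log2 difference over all genes was -0.73. When CPM was instead taken over the genes that were not called higher, that median moved to 0.27 and the split became 593 higher and 132 lower; with median-of-ratios size factors the median was -0.44 and the split 385 and 307. Log2 differences below are members minus other barcodes on the scale of log2(CPM + 10), with SD over the 2 libraries, and understate the change of genes with few UMIs.

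Of the 13 other thin filament genes listed, 10 passed the filter on low values, 7 of them only through the members; of the 3 with at least 50 CPM in the other barcodes of both libraries, 2 were higher and 1 lower. Tnni2, the fast troponin I that holds the filament off at rest, had 14628 and 17032 CPM in the members and 26.3 and 37.4 CPM in the other barcodes (log2 difference 8.57 ± 0.12). Tpm1, the fast-fibre alpha-tropomyosin, had 26236 and 27955 CPM in the members and 155 and 175 CPM in the other barcodes. Both genes stood far above the other barcodes in each library. Neb, whose giant protein nebulin runs the length of the thin filament, had 481 and 359 CPM in the members and 1.69 and 3.43 CPM in the other barcodes. The 1 gene that was lower was Tpm3, a tropomyosin gene with slow-muscle and cytoskeletal products, at 110 and 87.0 CPM in the members and 795 and 804 CPM in the other barcodes. Its log2 difference of -2.91 was -1.89, and no longer a call, when CPM was taken over the genes not called higher. Tpm3 has 1 near-identical copy at its 3' end, Tpm3-rs7.

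Thick filament and Z disc genes gave the same kind of count. The 7 thick filament genes that passed the filter, of 12 listed, were called higher, but all 7 passed only through the members, at 0.377 to 3.16 CPM in the other barcodes. Of the 11 of 12 Z disc and titin genes that passed, 9 did so only through the members, and the 2 with at least 50 CPM in the other barcodes, Des and Cryab, were higher too. Mybpc2, fast myosin-binding protein C, had 1265 and 1278 CPM in the members and 3.0 and 3.33 CPM in the other barcodes. Actn3, the fast-fibre alpha-actinin that anchors thin filaments in the Z disc, had 4387 and 4412 CPM in the members and 7.69 and 11.5 CPM in the other barcodes. Tcap, or telethonin, which caps titin in the Z disc, had 4049 and 5478 CPM in the members and 9.25 and 17.6 CPM in the other barcodes. For these 3 genes the 2 libraries lay close to each other and well apart from the other barcodes. Ttn, which encodes titin itself, had 650 and 196 CPM in the members and 1.04 and 1.25 CPM in the other barcodes, but 61 of its 77 UMIs in total muscle 1 sat in 1 barcode.

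Of the 17 genes of excitation and calcium handling, 11 passed the filter, and the 10 called higher passed only through the members, so their count adds nothing to their values. Pvalb, the calcium buffer parvalbumin that speeds relaxation of fast fibres, reached 13320 and 16178 CPM in the members and 19.5 and 31.5 CPM in the other barcodes (log2 difference 8.71 ± 0.15). Atp2a1, the fast calcium pump SERCA1, had 4488 and 4912 CPM in the members and 7.17 and 9.98 CPM in the other barcodes. Both had values in the members well above those in the other barcodes in each library. Atp2a2, the pump of slow fibres and of many other cells, had 42.2 and 5.44 CPM in the members and 94.2 and 96.6 CPM in the other barcodes and was not called. Sln, whose product sarcolipin inhibits SERCA pumps, was called higher, but all 49 of its UMIs in total muscle 1 came from 1 barcode with a 6-gene share of 5.22%, and 12 of 14 in total muscle 2 from another.

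Genes of energy metabolism were higher along with those of the sarcomere. Of the 19 glycolysis and glycogen genes, 16 passed the filter and 15 of these were higher; 10 passed only through the members, and of the 6 with at least 50 CPM in the other barcodes 5 were higher. Aldoa, the muscle aldolase, had 18947 and 20573 CPM in the members and 433 and 472 CPM in the other barcodes. Eno3, the muscle enolase, had 5669 and 5924 CPM in the members and 10.9 and 18.8 CPM in the other barcodes. Pygm, the muscle phosphorylase that releases glucose units from glycogen, had 1620 and 1327 CPM in the members and 10.6 and 10.6 CPM in the other barcodes. Members thus carried muscle forms of enzymes from the start and from later steps of the pathway at high level. Gapdh and Ldha were called higher too, but with 163 and 44 near-identical copies in the annotation, their counts are uncertain, and Aldoa has 4.

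The oxidative muscle isoforms, a list of 8, all passed the filter and were all higher, 6 of them having passed only through the members. Mb, whose product myoglobin stores oxygen, had 3172 and 3248 CPM in the members and 3.65 and 5.51 CPM in the other barcodes. Cox6a2 and Cox8b, muscle forms of cytochrome oxidase subunits, had 3484 and 3955 CPM and 2750 and 3302 CPM in the members, against 13.0 and 9.77 CPM and 5.60 and 9.25 CPM in the other barcodes. Over the broader set of nuclear-encoded subunits of the respiratory chain, picked by symbol after the data were seen, 61 of 76 were higher and 0 lower, with a median log2 difference of 2.76. Of the 76, 5 passed the filter only through the members. Of the 68 with at least 50 CPM in the other barcodes of both libraries, 53 were higher, against 102 of 2083 such genes in all. Cox7c, found in all tissues, had 3678 and 3699 CPM in the members and 447 and 461 CPM in the other barcodes. Cox6a1 and Cox8a ran the other way, though neither was called. Cox6a1 had 110 and 76.2 CPM in the members and 410 and 413 CPM in the other barcodes. Cox8a had 202 and 125 CPM in the members and 485 and 496 CPM in the other barcodes. Of the 13 genes that the mitochondria themselves encode, 7 passed the filter, of which 0 were higher, 2 lower (mt-Nd5 and mt-Co1, subunits of complexes I and IV) and 5 neither, with a median of -2.18. mt-Cytb, cytochrome b of complex III, had 683 and 354 CPM in the members and 2222 and 2294 CPM in the other barcodes, and mt-Nd1, a subunit of complex I, had 582 and 321 CPM in the members and 1967 and 2050 CPM in the other barcodes. Neither of these 2 was called, and neither has a near-identical copy. When CPM was taken over the genes not called higher, 1 of the 7 was lower.

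**Figure D2:**
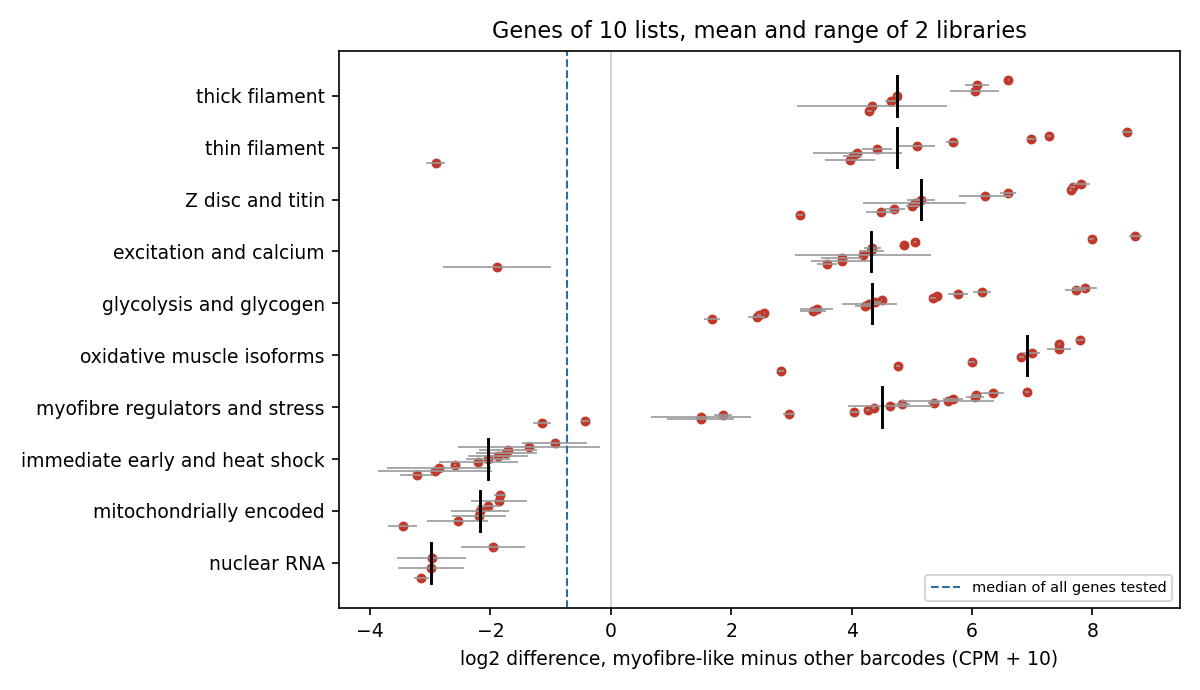
Log2 difference in CPM + 10 between myofibre-like and other barcodes for the genes of 10 lists that passed the filter on low values; each point is the mean of the 2 libraries, the grey line their range, the black bar the list's median and the dashed line the median of all genes tested (-0.73). Contractile, glycolytic and oxidative lists have medians from 4.32 to 6.91, mostly over genes that passed only through the members, and the mitochondrially encoded and nuclear RNA lists medians of -2.18 and -2.98.

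Of the 4 nuclear RNAs listed, 3 were lower and 0 higher, and 1 was lower when CPM was taken over the genes not called higher. Malat1, a long noncoding RNA that stays in the nucleus, had 10216 and 4656 CPM in the members and 54400 and 54525 CPM in the other barcodes (log2 difference -2.98 ± 0.80). Neat1, the RNA scaffold of nuclear paraspeckles, had 152 and 65.3 CPM in the members and 865 and 863 CPM in the other barcodes. Both were lower in the members of each library, with log2 differences of -1.89 and -1.97 under that other scaling, and with the members of total muscle 1 above those of total muscle 2. The RNAs of cytosolic ribosomal proteins, also picked by symbol after the data were seen, stood near the median of all genes: 1 of 82 was higher and 1 lower, with a median of -0.93. That median changed sign, to 0.15, when CPM was taken over the genes not called higher. The exceptions were a pair of paralogs: Rpl3l, the form of the large-subunit protein made in striated muscle, had 548 and 604 CPM in the members and 1.69 and 1.87 CPM in the other barcodes, and Rpl3, the form made elsewhere, had 202 and 174 CPM in the members and 2131 and 2076 CPM in the other barcodes.

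The members were of 2 kinds by their Malat1 share. In the 34 and 57 members with a 6-gene share of at least 10%, a division made after the values were seen, Malat1 took from 0 to 0.237% of UMIs in total muscle 1 (median 0.0581%) and from 0 to 0.219% in total muscle 2 (median 0.0551%). In the other barcodes its median share was 5.32% and 5.30%, and only 9 and 8 of them had less than 0.3%, a limit picked after the values were seen. The same members had a median of 0% and 0.0354% of their UMIs from mt- genes, against 0.689% and 0.675% in the other barcodes, and at most 0.120% and 0.608%. They therefore lay below nearly all the other barcodes on nuclear RNA and below their median on mt- RNA. The 6 and 4 members with a share under 10% had Malat1 at 1.41 to 6.41% and 4.51 to 5.84% of UMIs, inside the range of the other barcodes. Their mt- UMIs ran from 0.191 to 1.70% and from 0.433 to 1.35%, so that in total muscle 2 the kinds overlapped on this measure.

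**Figure D3:**
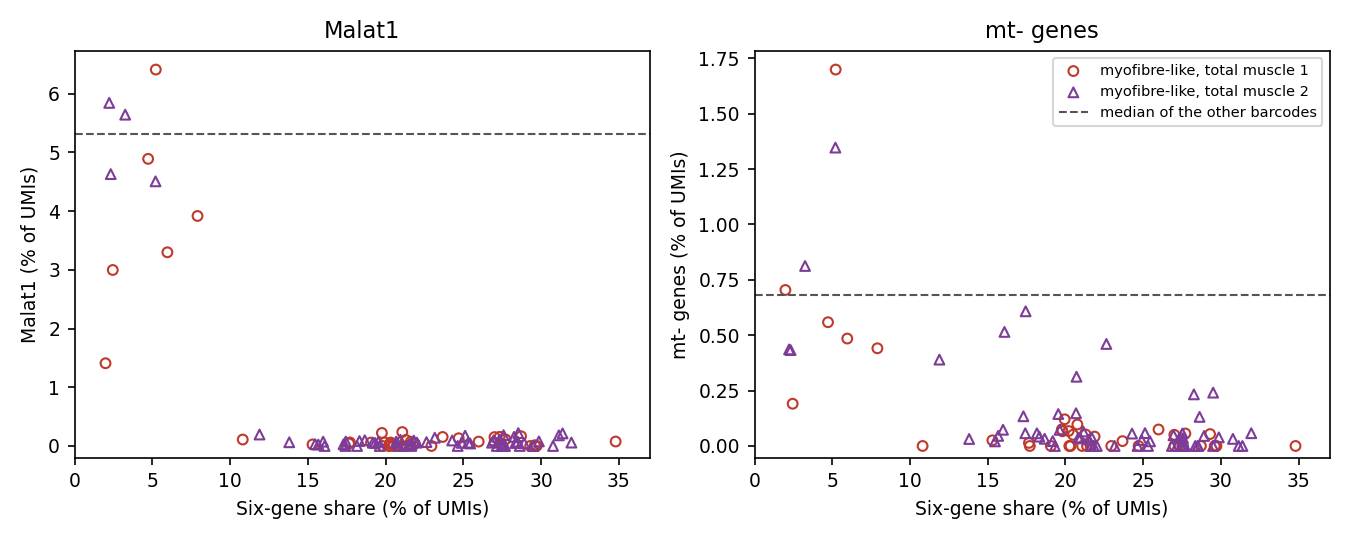
Share of UMIs from Malat1 (left) and from mt- genes (right) against the 6-gene share for each myofibre-like barcode of total muscle 1 (circles) and 2 (triangles); the dashed line is the median of the other barcodes, averaged over the 2 libraries. Members with a 6-gene share of at least 10% lie at or under 0.237% Malat1, while those under 10% lie between 1.41% and 6.41%.

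Those 6 and 4 barcodes weighed heavily on the sums. When they were counted with the other barcodes instead, the log2 difference of Malat1 was -6.63 and that of mt-Cytb -4.02. They were thus not left out of the comparison, and their muscle messages then counted toward the other barcodes. In that case all 7 tested mt- genes and all 4 nuclear RNAs were lower, and genes lower numbered 738 in place of 405. Genes higher numbered 380 in place of 347, and contractile, glycolytic and oxidative lists moved little, for example 15 of 16 glycolysis genes higher in both cases. Sln was not called in that case. Immediate early and heat shock genes, which enzymatic digestion of muscle is known to induce, were lower for 2 of 11 with all members. They were lower for 7 of 11 when the 6 and 4 barcodes were counted with the other barcodes. Over all tested genes, 405 of 2576 and 738 of 2501 were lower in these 2 cases, so 2 of 11 is near the general share. With all members and CPM taken over the genes not called higher, 0 of the 11 were lower. Fos, a transcription factor gene of that list, had 1367 and 239 CPM in the members and 1549 and 1437 CPM in the other barcodes and was not called; 98 of its 162 UMIs in the members of total muscle 1 came from 1 barcode.

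Each of the 6 and 4 barcodes also carried markers of another cell type, meaning at least 3 UMIs over at least 2 markers of 1 list. Fibro-adipogenic markers were carried by 4 and 3 of them and endothelial markers by 3 and 1. One barcode of total muscle 1 stood apart, with 53 Myh1, 61 Ttn, 49 Sln and 14 Myl4 UMIs among 8239, and with Malat1 at 6.41% and mt- genes at 1.70% of UMIs. A second, with a 6-gene share of 7.90%, had 46 Dcn and 325 Gsn UMIs beside 44 of Pvalb and 6 of Myh4. Dcn encodes the matrix proteoglycan decorin and Gsn the actin-severing protein gelsolin, both abundant in fibro-adipogenic cells. Whether such barcodes held more than 1 cell was not tested.

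Over all members, 35.0% and 37.7% carried another type's markers (mean 36.4% ± 1.91, SD, n = 2). In the other barcodes 93.1% and 94.3% carried markers of a list other than the myofibre one. There that list can be the barcode's own type, so the 2 shares are not alike. Markers of 2 or more such lists, a closer match, were carried by 628 of 1929 and 759 of 2363 other barcodes. The other barcodes are deeper than the members, and these counts were not taken at equal depth. Among members with a share of at least 10%, 8 of 34 and 19 of 57 carried another type's markers. Fibro-adipogenic markers were carried by 8 and 17 of these, at no more than 4 and 10 UMIs per barcode, and Gsn and Dcn made up 96.3% and 94.0% of those UMIs. The share depends on depth and limits: with barcodes thinned to 1000 UMIs it was 13.1% over all members. Summed CPM of the fibro-adipogenic list was 849 and 808 in the members of at least 10% share, and 33006 and 32330 in the other barcodes. All 5 B cell markers and all 4 neutrophil markers were at 0 in the members. The rule asked for 0 UMIs of the leukocyte gene Ptprc, so these zeros are partly set by it. In the other barcodes the B cell list summed to 351 and 336 CPM. The neutrophil list summed to only 1.04 and 3.01 CPM there, too little for its zeros in the members to be informative. Of the satellite cell markers, Pax7 had 0 and 1 UMIs, Calcr had 0, and Myod1, a myogenic regulator, had 3 and 6 UMIs in the members.

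The other barcodes held the rule genes at low level. At least 1 UMI of the 6 genes was found in 63.7% and 67.5% of them, with medians of 3078 and 3239 UMIs per barcode. Barcodes that carried B cell markers, which should lack muscle messages, had such a UMI in 57.4% and 60.4% of cases at medians of 2183.5 and 2192 UMIs. Acta1 was 28.8% and 29.1% of the 6-gene UMIs in the members, against 27.5% and 30.01% in the other barcodes, and Tnnc2 was 18.3% and 18.6% in the members, against 17.6% and 17.7%. Ckm was 13.3% and 12.1% in the members, against 17.0% and 13.5% in the other barcodes. In total muscle 2, 1503 of the 4691 such UMIs of the other barcodes came from the 2 barcodes past the 1% threshold that were left out for a Ptprc UMI, and without these Acta1, Ckm and Tnnc2 made up 29.5%, 14.8% and 17.6%. The members held 90.4% and 89.1% of all 6-gene UMIs of the filtered libraries. Whether a single UMI of these genes in another barcode is background or expression was not tested. Gsn was detected in 77.5% and 67.2% of members and in 75% and 72.8% of barcodes with B cell markers. With barcodes thinned to equal depth, these shares were 57.5% against 42.3% in total muscle 1 and 32.8% against 46.8% in total muscle 2. The order thus differed between the libraries, and whether Gsn in the members is background was not tested.

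Members differed in the fast myosin heavy chain they carried. Windows before Myh4 (chr11:67237562-67237861) and Myh1 (chr11:67199852-67200151), both on the plus strand of GRCm38.p6 and from RefSeq, are shown because these neighbouring genes led in different members; capitals mark CAGCTG, the MEF2 motif, the CArG box and TATAAA.
Myh4: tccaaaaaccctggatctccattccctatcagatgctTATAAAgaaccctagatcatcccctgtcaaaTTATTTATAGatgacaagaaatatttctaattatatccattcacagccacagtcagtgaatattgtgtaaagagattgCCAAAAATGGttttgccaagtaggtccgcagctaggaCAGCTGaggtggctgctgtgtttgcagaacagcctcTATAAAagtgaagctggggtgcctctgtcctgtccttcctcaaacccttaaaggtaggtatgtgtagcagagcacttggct
Myh1: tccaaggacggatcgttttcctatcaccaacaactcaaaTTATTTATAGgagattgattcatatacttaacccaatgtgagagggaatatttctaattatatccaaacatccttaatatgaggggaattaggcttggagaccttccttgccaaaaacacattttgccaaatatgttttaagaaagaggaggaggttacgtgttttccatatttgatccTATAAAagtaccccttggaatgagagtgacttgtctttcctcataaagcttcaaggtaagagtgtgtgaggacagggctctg
Both windows hold 1 MEF2 motif, and CAGCTG and the CArG box were found in that of Myh4 and not in that of Myh1.

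Myh4 was detected in 28 and 39 members of total muscle 1 and 2, Myh1 in 6 and 15, and Myh2 in 4 and 3. Myh7, the slow myosin, had 0 UMIs in the members and in the other barcodes of both libraries. It has 1 near-identical copy at its 3' end, Myh6, so its counts are uncertain. A single fast isoform was seen in 28 and 45 members, a pair of isoforms in 5 and 6, and none in 7 and 10; at the members' depth an isoform can be missed. The myosins are listed by their own counts, with 111 Myh4, 111 Myh1 and 4 Myh2 UMIs in total muscle 1 and 148, 99 and 8 in total muscle 2. The barcode with 53 Myh1 UMIs held 53 of the 111 Myh1 UMIs of total muscle 1, and without the barcode highest in Myh1 the members stood at 526 and 395 CPM of Myh1, against 936 and 539 CPM with it.

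Where 1 isoform led with at least 3 UMIs, Myh4 led in 17 and 21 members, Myh1 in 3 and 11, and Myh2 in 0 and 1. Pvalb and Mb, which took no part in the choice of these classes, differed between them in both libraries. Pvalb stood at 18576 and 23953 CPM in the Myh4-led members and at 3256 and 9326 CPM in the Myh1-led members. Mb stood at 1181 and 1289 CPM in the Myh4-led members and at 5862 and 6039 CPM in the Myh1-led members. Mb was at 0 in 12 of 17 and 12 of 21 Myh4-led members, and in 0 of 3 and 0 of 11 Myh1-led members. Actn3 had 6681 and 6666 CPM in the Myh4-led members and 1210 and 1935 CPM in the Myh1-led members, and Fabp3, which carries fatty acids in oxidative fibres, had 794 and 667 CPM in the Myh4-led members and 3582 and 3614 CPM in the Myh1-led members. Per barcode, Pvalb ranged from 77.6 to 301 UMIs per 10000 in the Myh4-led members of total muscle 1 and from 4.85 to 146 in the 3 Myh1-led ones, so the classes overlapped. One of those 3 is the barcode with 53 Myh1 UMIs, and without the members under a 6-gene share of 10% the order of the classes was the same: Pvalb stood at 19988 and 23953 CPM in the Myh4-led members and at 4979 and 9326 CPM in the Myh1-led members, which then number 2 and 11.

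Across the members with a 6-gene share of at least 10%, barcodes high in Pvalb were low in Mb. Spearman's rho between the 2 genes was -0.65 over 34 barcodes of total muscle 1 and -0.84 over 57 of total muscle 2. In the same barcodes rho between Mb and the 6-gene share that chose the members was -0.76 and -0.84. The relation of Mb with Pvalb was not told apart from that with the 6-gene share. These are descriptions over barcodes that share a library and each its own depth, and Pvalb and Mb are shares of the same total. Pvalb was at 0 in 1 and 2 of these members and Mb at 0 in 15 and 26.

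**Figure D4:**
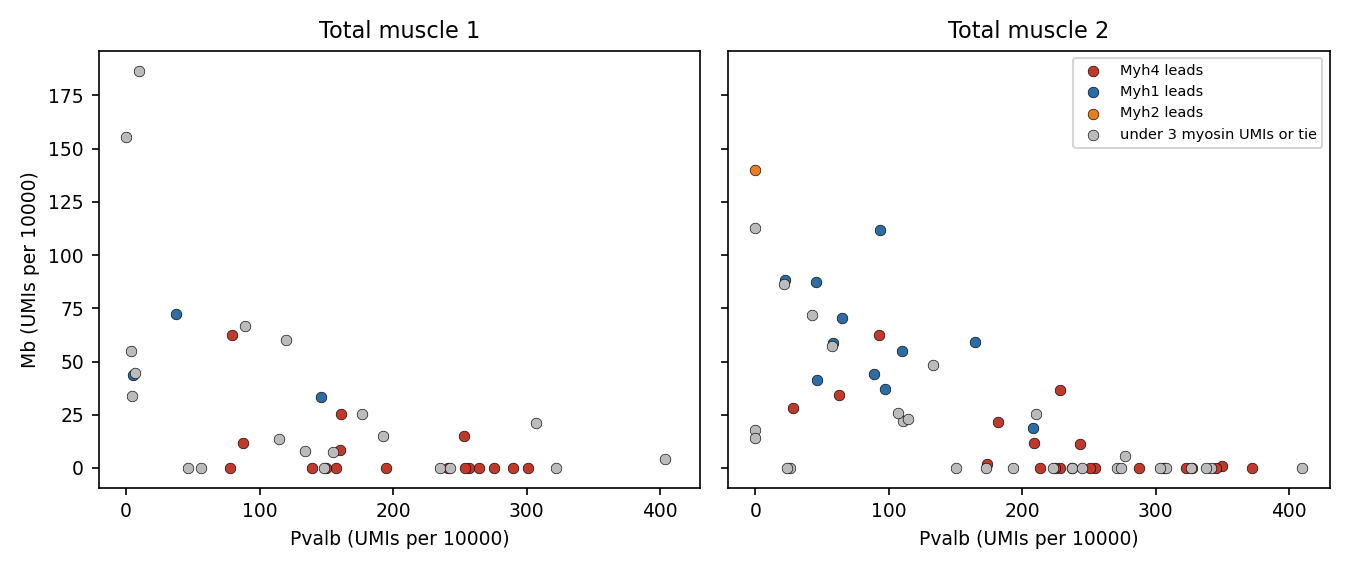
Mb against Pvalb, both in UMIs per 10000 of the barcode, for each myofibre-like barcode of total muscle 1 and 2, coloured by the myosin heavy chain with most UMIs. Myh4-led members lie toward high Pvalb and low Mb, with Mb at 0 in 12 of 17 and 12 of 21, Myh1-led members lie at lower Pvalb, and the Myh2-led member has no Pvalb.

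Slow isoforms were rare in the members. The rule genes Mylpf, Myl1, Tnnt3 and Tnnc2 encode fast forms, so the choice of members itself favoured fast fibres. The rarity is therefore no measure of the fibre types of the muscle. Of 10 listed, 4 passed the filter, of which Myl3 and Myoz2 were called higher, both having passed only through the members, Tpm3 was lower and Atp2a2 neither, with a median of 1.23. Myh7, Tnni1 and Tnnc1, the slow myosin, troponin I and troponin C, were at 0 in both libraries, where 3 UMIs would have been 25.3 and 16.3 CPM. For Myh7 the copy Myh6 is a further limit. Myl3, the slow essential light chain, had 10 and 98 UMIs in the members, of which 1 barcode held 10 and another held 65. Myl2, the slow regulatory light chain, had 0 and 29 UMIs, of which 25 sat in that last barcode. It was the Myh2-led member of total muscle 2, with 6713 UMIs, 94 of Mb, 8 of Tnnt1 and 0 of Pvalb. In all, 1 and 3 members had at least 5 UMIs of Myl3, Myl2 and Tnnt1 together, and each had 0 UMIs of Pvalb. With Myoz2 added, 3 and 3 members had at least 5, of which 1 and 3 had 0 UMIs of Pvalb and the others at most 5. Myoz2, which encodes the slow and cardiac calsarcin, stood at 186 and 277 CPM in the members and 0.391 and 0.624 CPM in the other barcodes. Of the 9 fast genes 8 passed the filter, all 8 only through the members, so their higher calls are no contrast with the slow list.

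Regulators and small heat shock proteins of the fibre passed the filter in 18 of 23 cases, 13 of them only through the members; 13 were higher and 0 lower, and of the 5 with at least 50 CPM in the other barcodes, 1 was higher. Hspb6, a small heat shock protein of muscle, had 1763 and 2013 CPM in the members and 4.43 and 7.07 CPM in the other barcodes. Trim63, the ubiquitin ligase MuRF1 of muscle atrophy, had 456 and 386 CPM in the members and 0.521 and 0.312 CPM in the other barcodes. Mef2c, a transcription factor of muscle differentiation that other cell types also use, had 498 and 424 CPM in the members and 116 and 123 CPM in the other barcodes and was not called. Myf6, the myogenic regulator most abundant in mature fibres, had 877 and 283 CPM in the members and 0.782 and 0.312 CPM in the other barcodes, but 83 of its 104 UMIs in total muscle 1 came from 1 barcode, without which it had 197 CPM. Transcripts of the neuromuscular endplate were almost absent: Chrne, Chrna1, Chrnd, Ache and Colq had 0 UMIs and Chrnb1 and Musk 1 each over both libraries.

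Outside the lists, the 12 highest genes by the smaller of their 2 log2 differences are named. All 12 averaged from 0.377 to 42.0 CPM in the other barcodes and so passed the filter only through the members. A higher call was thus close to fixed for them. Car3, the carbonic anhydrase of muscle and fat, led with 3197 and 3960 CPM in the members and 4.69 and 42.8 CPM in the other barcodes. Adssl1, the muscle adenylosuccinate synthase of the purine nucleotide cycle, had 987 and 1121 CPM in the members and 5.73 and 6.65 CPM in the other barcodes. Chchd10, a protein of the mitochondrial intermembrane space, had 2413 and 2899 CPM in the members and 39.3 and 44.6 CPM in the other barcodes. Each of these 3 was over 16-fold higher in both libraries. The others were Rpl3l, Asb2, Ppp1r27, Trim54, Ankrd23, Abra, Coq10a, Sh3bgr and Tcea3, with log2 differences from 5.20 to 5.66; Ankrd23 and Coq10a have 1 near-identical copy each. At the low end stood Prg4, Selp, Sdc4, Retnla, Chad, Plac8, Timp1 and Ndrg1. Prg4, the lubricating proteoglycan of joints and tendon sheaths, had 0 and 5.44 CPM in the members and 630 and 652 CPM in the other barcodes.

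Promoter windows of the genes called higher were compared with all windows of the RefSeq table, which had 321 windows for 266 of the 347 genes and 32851 windows in all, chromosome 18 left out. CAGCTG was in 23.1% of the windows of the genes called higher and in 16.3% of all windows. The MEF2 motif was in 4.98% against 3.19%, the CArG box in 4.05% against 1.63%, and TATAAA in 10.3% against 13.6%. Both strands were searched, a MEF2 match can overlap a TATAAA match, and a match is not a binding site. The shares are a description of a set chosen on expression.

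Primary myoblasts gave a second set of barcodes that met the same rule, 306 of 4414 (6.93%). In the sorted MuSCs the rule was met by 0 of 1574 and 1 of 1415 homeostatic barcodes and by 1 of 1256 and 5 of 2215 injured barcodes. The 2 sets share the rule, so a high level of the 6 genes is given, but the rest of their muscle program differed. Members had 0 UMIs of Myh3, embryonic myosin, of Tnnt2, the cardiac and embryonic troponin T, and of Tnnc1 and Tnni1, while the myoblast barcodes had 1986, 4159, 4776 and 5640 CPM of these 4 genes. Myl4, the embryonic essential light chain, was at 127 and 27.2 CPM in the members and 12507 CPM in the myoblast barcodes, and Myog, the regulator of myoblast differentiation, at 25.3 and 32.6 CPM in the members and 6092 CPM in the myoblast barcodes.

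Some genes of the adult fibre ran the opposite way and others did not. Pvalb was at 13320 and 16178 CPM in the members and at 3.12 CPM in the myoblast barcodes, and Ckm at 24414 and 25159 CPM in the members and 172 CPM in the myoblast barcodes. Myh4 was at 936 and 805 CPM in the members and 12.1 CPM in the myoblast barcodes, but Myh1 at 936 and 539 CPM in the members and 537 CPM in the myoblast barcodes. Without the barcode highest in Myh1, the members stood at 526 and 395 CPM of it. Myh8, another myosin heavy chain gene, has Myh1 as a near-identical copy and stood at 444 CPM in the myoblast barcodes. The final bases of Myh1 itself have 0 copies. Whether Myh8 reads were counted as Myh1 in the myoblast barcodes was not tested. Ttn was at 650 and 196 CPM in the members and 3703 CPM in the myoblast barcodes, Neb at 481 and 359 CPM against 1340 CPM, and Des, which encodes the intermediate filament protein desmin, at 2286 and 2551 CPM against 2087 CPM. The myoblast set is a single library with a median of 25385.5 UMIs per barcode and a median 6-gene share of 3.90%, so the comparison has no replicate check. Its Malat1 share had a median of 2.28% and its mt- share a median of 1.29%, both above those of the members with a 6-gene share of at least 10%.

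**Figure D5:**
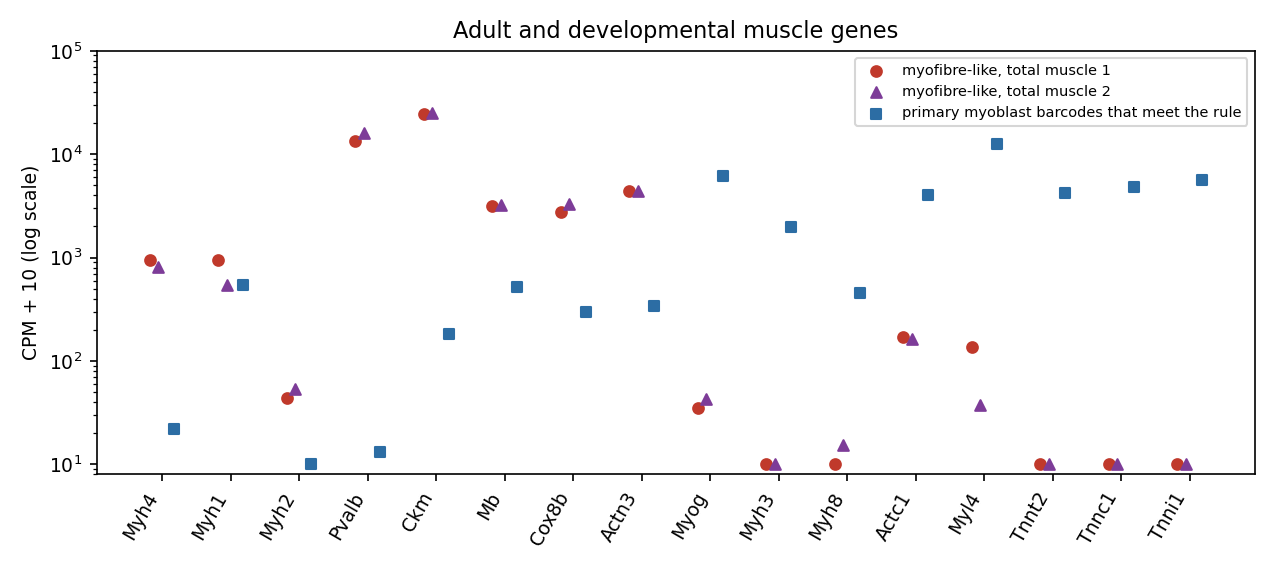
CPM + 10 (log scale) of 16 muscle genes in the myofibre-like barcodes of total muscle 1 (circles) and 2 (triangles) and in the primary myoblast barcodes that meet the same rule (squares). Pvalb, Ckm and Myh4 are higher in the members, and Myh3, Tnnt2, Tnnc1 and Tnni1 are at 0 in the members and at 1986 to 5640 CPM in the myoblast barcodes.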

How the data were processed

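Droplet 3' libraries were read from the deposited UMI counts per gene and barcode, which per the file headers are whole numbers, not normalized, for 27998 genes. Build mm10 and the tools Seurat 2.3.4, Cell Ranger 2.2.0 and bcl2fastq 2.17.1 are listed in the submitters' processing notes without their roles. Groups came from the labels. The total muscle libraries hold 7853341 and 9835824 UMIs in 1982 and 2432 barcodes. UMIs were summed over members and over the other barcodes of each library and scaled to CPM. No test was run, because measured values of these libraries chose the members. The members, lists and rules were chosen with earlier results of these data known.

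Named genes are the rule genes, up to 6 of each list by level in the members, list genes at 0, and the 12 highest and 8 lowest others of at least 200 CPM; a subset is given. Cox7c, Cox6a1, Cox8a, Rpl3, Cd74, the genes set beside the myosin classes and those set beside the myoblast barcodes were picked after their values were seen. Near-identical copies are genes whose GENCODE M21 transcripts share 90 bases or more, at 95% identity in blastn 2.17.0, with the final 300 bases of the gene's own transcripts; the authors may have used another annotation. Of 235 genes searched, 36 had one. The respiratory chain and ribosomal lists were not searched as a whole. Scrublet (scanpy 1.11.5) called 7 and 3 doublets, under 0.5% of cells, so the caller did not work and no call was used; an alternative left out the 31 and 47 barcodes with the highest scores. The steps that call genes were tested on simulated data. Python 3.11.15, numpy 2.4.6 and pandas 2.3.3 were used.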

Additional observations from a re-analysis of the deposited data

How the results depend on the processing

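The share of barcodes that meet the rule stayed within the spread (SD) of the 2 libraries under all alternatives run. With 1 replicate left out this was fixed in advance, as each of 2 values lies within their SD of the mean. The share of members that carry another type's markers was 32.1% at a 6-gene share of at least 5%, 28.4% at 10% (chosen after seeing the data), 34.1% without the highest Scrublet scores, 13.1% with barcodes thinned to 1000 UMIs, 68.2% at 2 UMIs of a list and 17.3% at 5 UMIs. Genes higher and lower numbered 589 and 1008 at 2-fold, 211 and 147 with a pseudocount of 50 CPM, and 593 and 132 with CPM over the genes not called higher; genes lower numbered 708 without the filter on low values and 738 at a share of at least 10%. With 1 replicate left out, genes higher ranged from 384 to 395, genes lower from 487 to 716 (the last without total muscle 1), the share of members from 2.03 to 2.52% and the share with other markers from 35.0 to 37.7%. A single library has to pass the fold once and not in both, so counts from it can only grow where the tested genes stay the same. Of 126 named or listed genes called, 0 changed sign under these alternatives. Another fold limit, low-value filter or pseudocount, or leaving out 1 replicate, could not change a sign, so that count says little. The call was kept by 105 with a pseudocount of 50 CPM, 112 with CPM over the genes not called higher and 121 with thinning. No paired analysis was possible because the results come from no test; the differences were already taken within each library. Depth limits the rare messages: 3 UMIs over the members are 25.3 and 16.3 CPM.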

Other observations

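Members that had no other type's markers numbered 26 of 40 and 38 of 61. Among members with a 6-gene share of at least 10%, 11 of 34 and 16 of 57 had 0 Malat1 UMIs and 19 of 34 and 18 of 57 had 0 mt- UMIs, against 3 of 1929 and 6 of 2363, and 4 of 1929 and 2 of 2363, of the other barcodes. After thinning to 1000 UMIs, Malat1 was detected in 52.5% and 49.2% of all members and in 99.6% and 99.7% of the other barcodes. Genes for haemoglobin were lower in the members, with a summed 110 and 32.6 CPM, against 4103 and 1568 CPM in the other barcodes, where total muscle 1 was the higher library. Cd74, an antigen presentation gene, had 5 and 72 UMIs in the members, of which 58 in total muscle 2 lay in 1 barcode with a 6-gene share of 3.25%. The single homeostatic MuSC barcode that met the rule had 1055 UMIs and a 6-gene share of 18.7%, and the 5 of injured MuSC 2 had shares from 1.03 to 1.83%.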
